A study of Gallus gallus with 4 samples.

Results

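The 10 genes described here encode the PIWI protein PIWIL1, the Tudor domain proteins TDRKH, TDRD1, TDRD5, TDRD7 and TDRD9, the helicase MOV10L1, the exonuclease PNLDC1, the methyltransferase HENMT1 and MAEL. All probe sets that the platform annotation names for one of these symbols were taken, which gave 18 probe sets of the 38382 tested and 10 genes of the 13008 with a symbol. They were measured in gonads of chickens at 17 weeks of age, from inbred CB congenic lines of White Leghorn origin. RNA of whole testes was combined from 4 males into each of 2 testis pools, and RNA of whole ovaries from 4 females into each of 2 ovary pools. Every pool was read on 1 array, an Affymetrix GeneChip for the chicken genome, and no treatment is named. Pooling hides the spread between single birds, so every error and p-value below rests on the spread between pools. The limma fit moderates that spread with the variances of all probe sets.

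piRNAs are short RNAs of germ cells that guide PIWI proteins to transposon and other transcripts. Their precursors are brought to processing sites beside mitochondria by helicases such as MOV10L1, cut, loaded into a PIWI protein, trimmed by PNLDC1 on the mitochondrial protein TDRKH and capped with a methyl group by HENMT1, as worked out mainly in mouse and insects. Tudor domain proteins bind methylated arginines of PIWI proteins and hold the machinery together in germ granules. The pathway is needed for sperm formation in mouse, and in birds PIWI proteins are found in germ cells of both sexes.

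Of the 10 genes, 8 were higher in testis and 2, HENMT1 and TDRD5, were higher in ovary, each gene being represented by its probe set with the highest mean over the 4 arrays (limma, Benjamini-Hochberg adjusted p under 0.05). Over all 13008 genes 24.3% were called higher in testis and 28.7% higher in ovary. The median log2 difference, testis minus ovary, was 2.09 over the 10 genes, also with TDRKH at its bound, and -0.01 over all genes. By probe set, 13 of 18 were called in the testis direction and 2 in the ovary direction, beside 17.4% and 18.2% of all probe sets, and 3 were not called. The pools of the organs did not overlap for any of the 10 brightest probe sets, with testis above for 8 and ovary above for 2, beside 36.0% and 45.2% of all genes. Over the 18 probe sets testis was above for 14 and ovary above for 3, beside 30.0% and 40.0% of all probe sets. The 3 that did not pass lay below log2 3.32 in every pool. That value, called the background level here, is the 99th percentile of 689 probe sets for sequences other than chicken genes. Over the 15 probe sets above it in a pool, testis was above for 13 and ovary above for 2. The matching share over all probe sets above it in a pool was not computed. A probe set can enter this count through a single organ, as the brightest of TDRKH did through testis. With testis pool 1 or testis pool 2 left out, fewer of the 10 genes were called in either direction by the brightest probe set. Fewer of all probe sets were called as well.

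The pools of an organ lay close together and the organs apart. Pools correlated over all probe sets at r = 0.995 for testis and 0.991 for ovary, and at 0.825 to 0.834 between organs (probe sets are not independent replicates). The share of probe sets above the background level ran from 55.1% to 55.7% over the arrays. Markers of oocytes marked the ovary pools: 8 of 9 measured were called higher in ovary, and their mean log2 value was 2.79 and 2.93 in the testis pools, against 9.49 and 9.58 in the ovary pools. GDF9, NOBOX, BTG4, KPNA7 and MOS were at background in both testis pools, and the oocyte count was 5 without testis pool 2. Markers of spermatids marked the testis pools, with 7 of 8 called higher in testis, means of 13.05 and 13.09 in the testis pools and 3.27 and 3.40 in the ovary pools, and 7 of 8 at background in both ovary pools (ACR, TSSK6, SPACA9, PLCZ1, TEKT5, DNAJB8 and TPPP2). Of 10 spermatocyte markers 8 were called higher in testis, with means of 10.57 and 10.58 in the testis pools and 4.61 and 5.07 in the ovary pools, and DMC1 and MEI1 were at background in both ovary pools. That spermatocyte count was 5 without testis pool 1 and 4 without testis pool 2. Of 5 measured genes listed for spermatogonia 3 (GFRA1, ID4 and SALL4) were called higher in ovary and 0 in testis. List means were 6.38 and 6.49 in the testis pools and 9.31 and 9.38 in the ovary pools. The members differed: organ means in testis and ovary were 3.11 and 10.77 for SALL4, but 12.98 and 12.39 for DAZL. DAZL and KIT were not called. The list did not mark the testis pools and is not read here as a measure of spermatogonia. Of the other marker lists, those for granulosa cells, steroid-making cells and erythrocytes went to ovary (4 of 5, 3 of 4 and 2 of 2 called, and 0 toward testis). Lists for Sertoli cells (3 toward testis and 2 toward ovary), leukocytes (1 and 3) and endothelium (1 and 2) were mixed. For smooth muscle 0 of 3 were called. Markers of oocytes, spermatocytes and spermatids thus moved with organ, as some other lists did. The part of cell types in the differences below was not tested. In whole tissue, fewer cells of a type and less RNA per cell cannot be told apart.

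PIWIL1, the Argonaute-family protein that carries piRNAs, was several-fold higher in testis but bright in both organs. Its brightest probe set (GgaAffx.25561.1.S1_s_at) stood at log2 13.05 in both testis pools, against 10.50 and 10.57 in the ovary pools. The other probe set (Gga.16962.1.S1_at) read 12.66 and 12.98 in testis, against 10.02 and 10.09 in ovary. Both testis pools were above both ovary pools on each probe set. The log2 difference was 2.52 (SE 0.035, adjusted p = 0.000728) on the first and 2.77 (SE 0.14, adjusted p = 0.00411) on the second, and the 95% intervals (2.40 to 2.63 and 2.28 to 3.25) overlapped. Neither call ended with any pool left out (adjusted p of 0.0078 to 0.0248 over the 8 fits). PIWIL1 lies on chromosome 15 of the assembly GRCg7b.

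**Figure D1:**
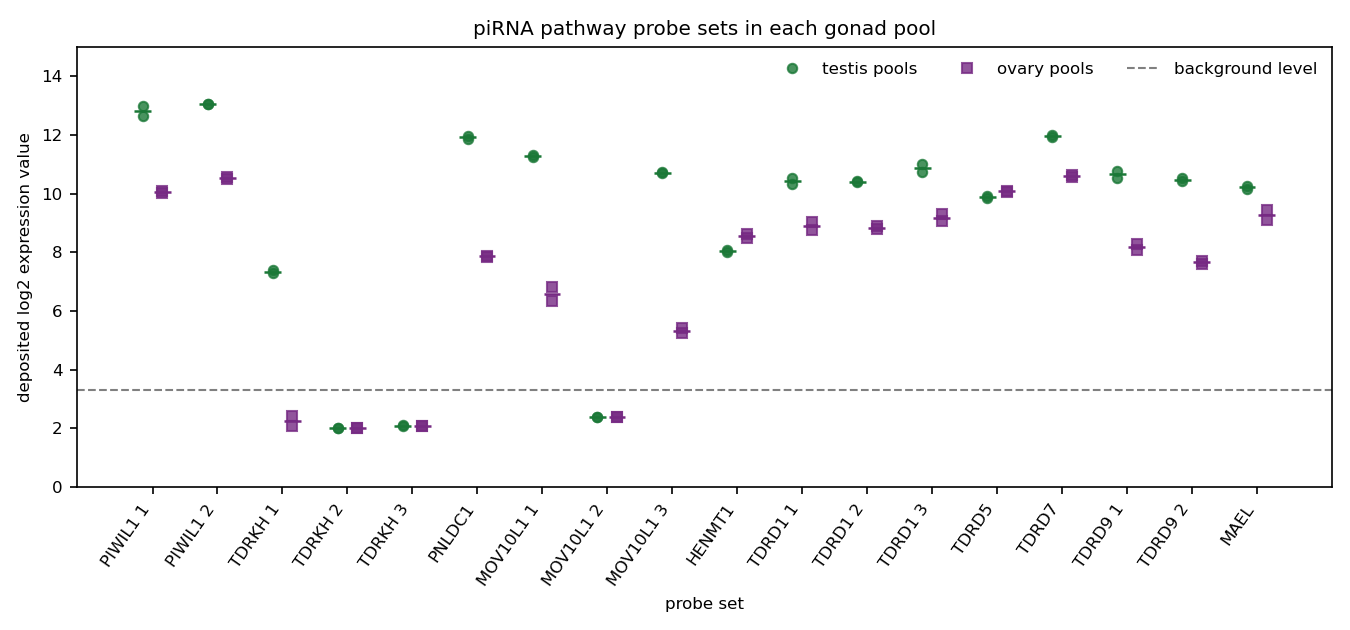
Deposited log2 expression values (vertical axis) of the 18 probe sets of the 10 genes (horizontal axis), with circles for the 2 testis pools, squares for the 2 ovary pools and short lines for the mean of each organ. The dashed line is the background level at log2 3.32. Testis circles lie above ovary squares for 13 probe sets above that line, below them for HENMT1 and TDRD5, and 3 probe sets (TDRKH 2, TDRKH 3 and MOV10L1 2) lie under the line in both organs. Heights of different probe sets cannot be compared.

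MOV10L1, the helicase that binds piRNA precursors in mouse, stood at 11.33 and 11.26 in the testis pools, against 6.83 and 6.35 in the ovary pools, on its brightest probe set (GgaAffx.11302.1.S1_at). A second probe set (GgaAffx.11302.2.S1_s_at) read 10.69 and 10.74 in testis, against 5.43 and 5.24 in ovary. On both, all ovary values were above background and far below the testis values. The log2 differences were 4.71 (SE 0.21, adjusted p = 0.00316), a 26.1-fold difference, and 5.38 (SE 0.088, adjusted p = 0.000886), a 41.7-fold difference. The first lost its call when either testis pool was left out (adjusted p = 0.0587 for pool 1 and 0.0589 for pool 2), at differences of 4.67 and 4.75, while the second kept it without any pool. The third probe set of the gene (GgaAffx.11302.2.S1_at) lay between 2.37 and 2.39 in every pool, so that it gave no measure of the gene in either organ.

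PNLDC1, which trims the ends of piRNAs in mouse, had 11.97 and 11.88 in testis, against 7.86 in both ovary pools. The difference of 4.06 (SE 0.043, adjusted p = 0.000541) was 16.7-fold and larger than that of 96.1% of all genes. Of the 10 genes it had the smallest adjusted p, and it passed with any pool left out (adjusted p of 0.00787 to 0.0119).

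TDRKH, the mitochondrial partner that tethers PIWI proteins and the trimmer in mouse, was measured in testis and at background in ovary. Its brightest probe set (GgaAffx.11181.1.S1_at) read 7.39 and 7.28 in the testis pools, against 2.43 and 2.09 in the ovary pools. With ovary at background only a bound can be given: testis was at least 16.2-fold higher (adjusted p = 0.00189), the mean of the testis pools being set against the background level. The other 2 probe sets of TDRKH lay between 2.00 and 2.10 in every pool and did not pass (adjusted p = 0.863 and 0.936). The testis signal for TDRKH thus came from 1 of 3 probe sets.

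HENMT1, the methyltransferase that protects the ends of piRNAs, went the other way. It had 8.00 and 8.07 in the testis pools, against 8.48 and 8.61 in the ovary pools. The pools did not overlap, and the difference was -0.51 (SE 0.067, 95% interval -0.73 to -0.28, adjusted p = 0.0226), which is 1.42-fold. Leaving out testis pool 1 (adjusted p = 0.161), testis pool 2 (0.134) or ovary pool 2 (0.0559) ended the call, and leaving out ovary pool 1 did not (0.0385). HENMT1 was measured by 1 probe set, as were PNLDC1, TDRD5, TDRD7 and MAEL.

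**Figure D2:**
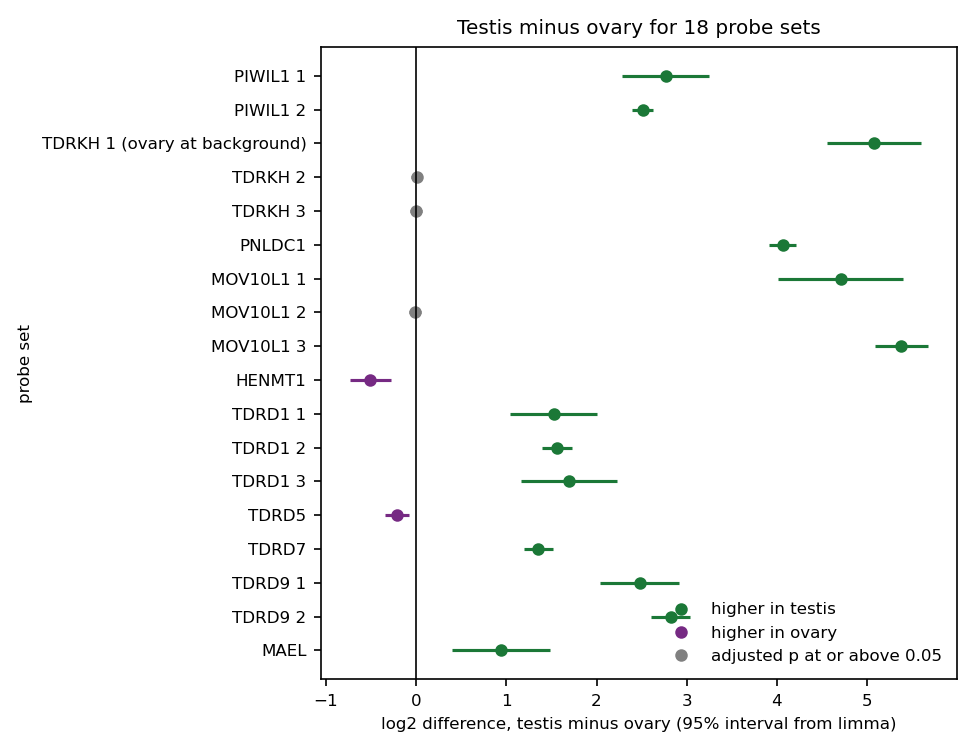
Log2 difference, testis minus ovary (horizontal axis), of each probe set of the 10 genes (vertical axis), with 95% intervals from limma. Green marks probe sets called higher in testis, purple those called higher in ovary and grey those with an adjusted p at or above 0.05. TDRKH probe set 1, at background in ovary, is drawn at its measured value, which is no bound. The other differences run from -0.51 for HENMT1 to 5.38 for MOV10L1 probe set 3, and the 3 grey points lie within 0.02 of 0.

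The Tudor domain proteins with a TDRD symbol covered the range from level to several-fold. TDRD9, which joins a helicase to a Tudor domain and takes part in transposon silencing in mouse, had the widest gap of these 4. Its brightest probe set (GgaAffx.7325.1.S1_at) read 10.78 and 10.54 in testis, against 8.09 and 8.28 in ovary, and its other one (GgaAffx.7325.2.S1_s_at) 10.53 and 10.43 in testis, against 7.71 and 7.60 in ovary. Both placed testis above ovary in every pool. The differences were 2.48 (SE 0.13, adjusted p = 0.00414) and 2.82 (SE 0.064, adjusted p = 0.00132), and both passed with any pool left out, the highest adjusted p being 0.0472.

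TDRD1, a scaffold of the granules between mitochondria in mouse germ cells, was measured by 3 probe sets that gave like differences. The brightest (GgaAffx.5656.1.S1_at) read 10.73 and 11.01 in testis, against 9.06 and 9.30 in ovary. Its difference was 1.70 (SE 0.16, adjusted p = 0.0115), beside 1.53 (SE 0.14, adjusted p = 0.0116) and 1.56 (SE 0.048, adjusted p = 0.00193) on the others. The probe set at 1.56 passed with any pool left out, while those at 1.70 and 1.53 needed both testis pools. Their adjusted p was 0.0739 and 0.104 with testis pool 1 left out, and 0.0867 and 0.091 with testis pool 2 left out.

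TDRD7, a germ granule component in mouse, stood at 11.92 and 11.99 in testis, against 10.63 and 10.57 in ovary. The difference of 1.36 (SE 0.048, adjusted p = 0.00233) was 2.56-fold and passed with any pool left out (adjusted p of 0.015 to 0.0356). TDRD7 is the only one of the 10 genes placed on the Z chromosome in GRCg7b, of which male birds carry a pair and females a single copy. Over the 609 Z-linked genes measured, the median difference was 0.39, with quartiles at -0.33 and 1.75, and TDRD7 lay above 68.6% of them. Among the 12355 autosomal genes the median was -0.02.

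TDRD5, needed for transposon silencing and spermatid formation in mouse, was nearly level. It had 9.90 and 9.84 in testis, against 10.11 and 10.06 in ovary. The pools did not overlap, but the difference was -0.21 (SE 0.039, 95% interval -0.34 to -0.08, adjusted p = 0.0447), a 1.16-fold difference. The call ended with any single pool left out (adjusted p of 0.109 to 0.181), with quantile normalization (0.0897), with median centring (0.0844) and under 4 more of the alternative settings, with a negative difference in each of those fits.

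MAEL, a germ granule protein of transposon silencing, had 10.26 and 10.16 in testis, against 9.10 and 9.46 in ovary. The ovary pools differed from each other by more than the testis pools did, and the organs did not overlap. The difference was 0.94 (SE 0.16, 95% interval 0.39 to 1.48, adjusted p = 0.0391). With testis pool 1 or testis pool 2 left out it did not pass (adjusted p = 0.239 or 0.189). It also did not pass with values floored at the background level (0.0714).

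**Figure D3:**
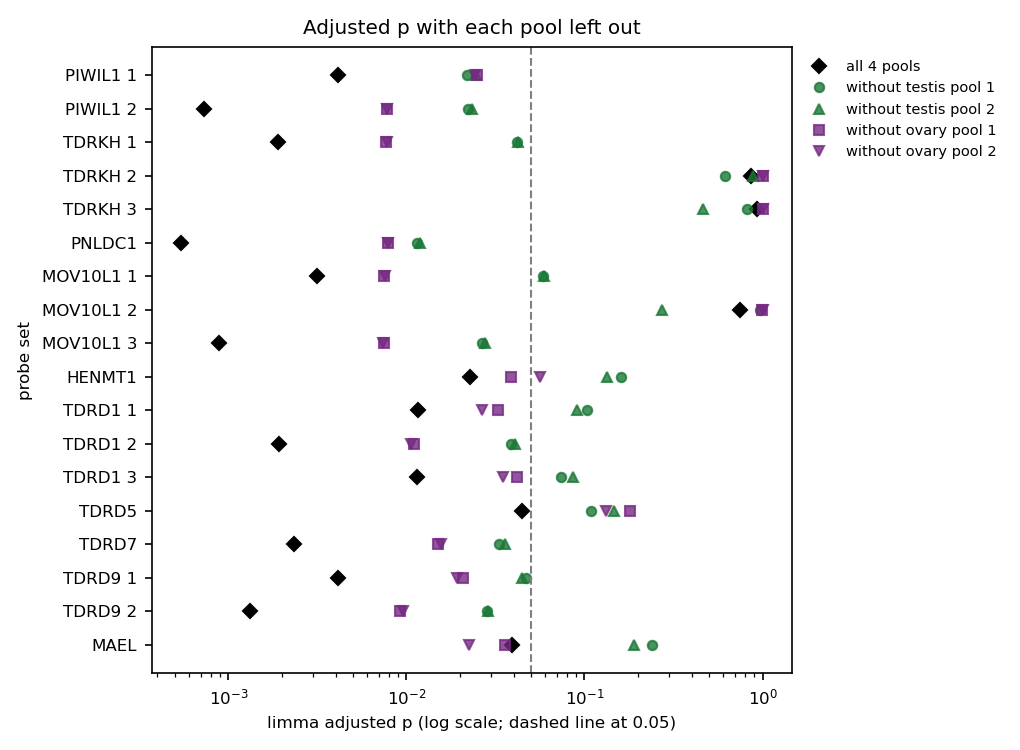
Limma adjusted p (horizontal axis, log scale) of each probe set of the 10 genes (vertical axis) with all 4 pools (black diamonds) and with 1 pool left out (coloured symbols). The dashed line is at 0.05. All symbols of 9 probe sets, from 7 genes (PIWIL1, TDRKH, PNLDC1, MOV10L1, TDRD1, TDRD7 and TDRD9), lie left of the line.

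Over the 18 probe sets, 9 passed with every pool left out in turn, and these came from 7 genes: PIWIL1, TDRKH, PNLDC1, MOV10L1, TDRD1, TDRD7 and TDRD9. Without a testis pool the residual spread came from the ovary pools alone, and 9 probe sets passed in either case. Without ovary pool 1 there were 14, and without ovary pool 2 there were 13. Standard deviations between the pools of an organ ranged up to 0.338, the value of MOV10L1 in ovary. Fewer of all probe sets were also called with any pool left out. Their share passing with every pool left out in turn was not computed, so the count passing in every fit has no measure beside it. Counts over all probe sets with a pool left out are given as ranges in the last section. An exact permutation test of 2 against 2 pools cannot go below p = 0.333.

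**Figure D4:**
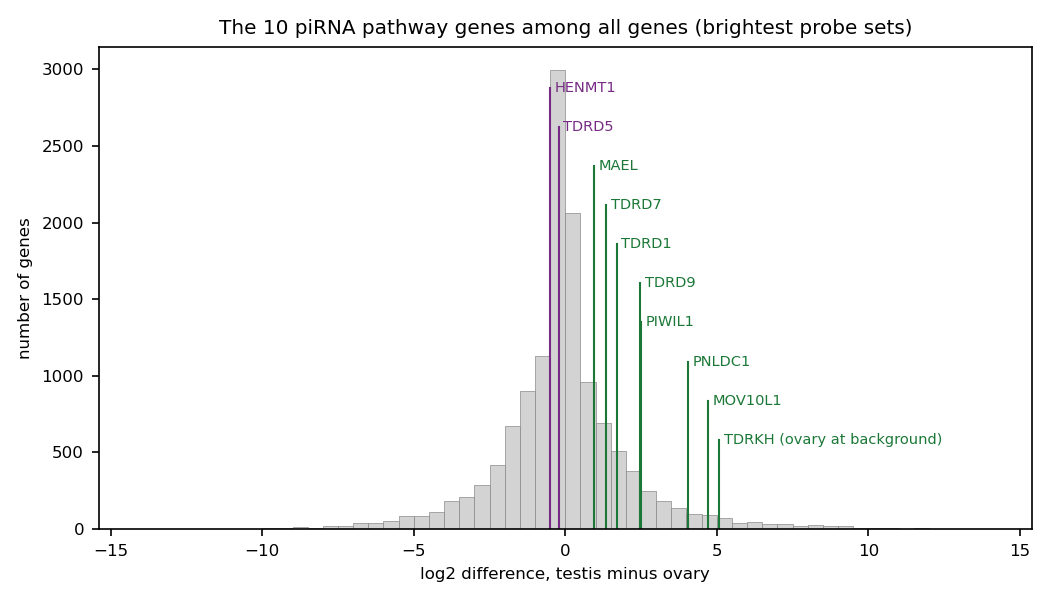
Number of genes (vertical axis) by log2 difference, testis minus ovary (horizontal axis), in bins over all 13008 genes by the brightest probe set. Vertical lines mark the 10 genes, at heights chosen only to keep the names apart. MOV10L1 and PNLDC1 lie in the right tail, at 4.71 and 4.06. TDRKH, drawn at its measured value, has only a bound of 4.02, since ovary is at background, while HENMT1 and TDRD5 lie in the central peak.

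Set among all genes, MOV10L1 had a larger difference toward testis than 97.0% of genes, PIWIL1 than 91.7% and TDRD9 than 91.5%. TDRD1 (86.4%), TDRD7 (83.4%) and MAEL (78.6%) were less far out. The 90th percentile of all genes was at 2.21. TDRKH has a bound only, of 4.02, which lies above that percentile and above the difference of PIWIL1. Its place against MOV10L1 and PNLDC1 cannot be given, so it is left out of the order below. In the order of the other 9 by the brightest probe set (MOV10L1, PNLDC1, PIWIL1, TDRD9, TDRD1, TDRD7, MAEL, TDRD5 and HENMT1), 95% intervals of neighbours overlapped, except between PNLDC1 (3.92 to 4.21) and PIWIL1 (2.40 to 2.63) and between MAEL (0.39 to 1.48) and TDRD5 (-0.34 to -0.08). The differences between genes were not tested.

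Other genes listed with the pathway were mostly higher in testis as well. The list was not limited to genes that act only in the pathway, since HSP90AA1, HSP90AB1, PRMT5, WDR77, PARN and TDRD3 were in it. Of 28 listed genes, 15 had a probe set with 1 symbol and the other 13, among them PIWIL2 and PLD6, were not analysed here. Those 15 genes had 28 probe sets. Of these, 16 were called toward testis and 2 toward ovary, beside 17.4% and 18.2% of all probe sets, and 10 were not called. By the brightest probe set 11 of 15 were called toward testis and 1 toward ovary, while 3 were not called (24.3% and 28.7% over all genes), with a median difference of 1.66 (1.30 with GPAT2, at background in ovary, at its bound) against -0.01 over all genes. Fewer of the 15 were called toward testis with either testis pool left out, as were fewer of all probe sets.

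DDX4, the Z-linked germ cell helicase gene known as VASA, had the widest gap of these, with 12.55 and 12.36 in the testis pools, against 7.42 and 8.10 in the ovary pools (difference 4.69, SE 0.30, adjusted p = 0.00571). Leaving out testis pool 1 or pool 2 ended its call (adjusted p = 0.0815 or 0.0791). RNF17, a Tudor protein that keeps piRNAs from wrong targets in mouse, read 11.99 and 12.00 in testis, against 7.97 and 8.17 in ovary (difference 3.93, SE 0.087, adjusted p = 0.00128), and 3 of 3 probe sets were called. STK31, a Tudor domain kinase-like protein, had 10.52 in both testis pools, against 7.25 and 7.16 in the ovary pools (difference 3.32, SE 0.043, adjusted p = 0.000698). GTSF1, a small zinc finger partner of PIWI proteins, was also bright in both organs, with 13.80 and 13.92 in testis, against 11.39 and 11.52 in ovary (difference 2.40, SE 0.076, adjusted p = 0.00199). RNF17, STK31 and GTSF1 passed with any pool left out. The chaperone gene HSP90AB1 differed by 2.56 (SE 0.13, adjusted p = 0.00402) and lost its call without testis pool 1 (adjusted p = 0.0519).

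MYBL1, which encodes the transcription factor A-MYB that switches on piRNA genes in mouse and rooster spermatocytes, had probe sets that disagreed. The brightest read 13.24 and 13.31 in testis, against 8.73 and 9.03 in ovary (difference 4.39, SE 0.13, adjusted p = 0.00191). Of its 6 probe sets 3 were called higher in testis, 1 was called higher in ovary (Gga.18637.1.S1_at, at 5.80 and 6.44 in testis, against 8.31 and 8.88 in ovary) and 2 did not pass. The direction of MYBL1 therefore depends on the probe set, and whether the odd one measures the same transcript was not tested.

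Also called higher in testis were FKBP6, a co-chaperone (difference 1.30), ASZ1, a mitochondrial granule protein (1.16), and TDRD3 (1.12). The last were WDR77 (0.99) and its partner PRMT5, which methylates arginines (0.72). The called probe sets were 1 of 2 for TDRD3, 1 of 4 for WDR77 and 1 of 2 for PRMT5. FKBP6 passed with any pool left out. ASZ1, TDRD3 and WDR77 lost their calls with either testis pool left out, at adjusted p of 0.1, 0.0671 and 0.0514 for pool 1 and of 0.0997, 0.065 and 0.0521 for pool 2. PRMT5 lost its call without testis pool 1 (adjusted p = 0.064), ovary pool 1 (0.135) and ovary pool 2 (0.119).

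PARN, a ribonuclease related to PNLDC1, was the member called higher in ovary, with 8.35 and 8.05 in testis, against 9.91 and 10.22 in ovary (difference -1.87, SE 0.18, adjusted p = 0.0127). This call was lost with testis pool 1 or pool 2 left out (adjusted p = 0.0856 or 0.0994). TDRD6, a chromatoid body protein in mouse, had 8.44 and 8.53 in testis, against 6.12 and 4.17 in ovary, and did not pass (difference 3.34, SE 0.83, adjusted p = 0.0836). The ovary pools of TDRD6 lay far apart, and the difference was 4.32 without ovary pool 1 and 2.37 without ovary pool 2. GPAT2, a mitochondrial protein of piRNA production in mouse, had 3.44 and 4.59 in testis, against 2.37 and 2.36 in ovary. It was at background in ovary and did not pass (adjusted p = 0.118). Its testis pools lay apart, and their mean was 1.62-fold above the background level. The measured difference, which is no bound, was 2.23 without testis pool 1 and 1.08 without testis pool 2. HSP90AA1 differed by 0.36 on its brightest probe set and did not pass (adjusted p = 0.18), and its other probe set was called higher in testis.

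**Figure D5:**
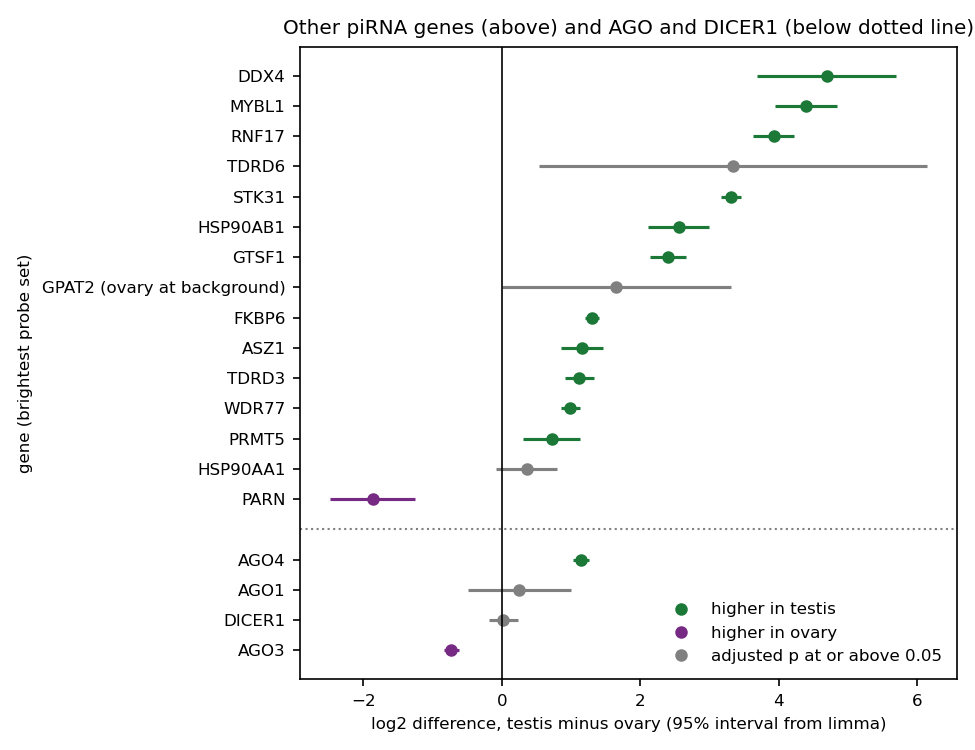
Log2 difference, testis minus ovary (horizontal axis), of 15 other piRNA pathway genes and, below the dotted line, of AGO1, AGO3, AGO4 and DICER1 (vertical axis), by the brightest probe set with 95% intervals from limma. Green marks genes called higher in testis, purple those higher in ovary and grey those that did not pass. The genes above the dotted line run from -1.87 for PARN to 4.69 for DDX4, and the wide intervals of TDRD6 and GPAT2 reflect pools of an organ that lay apart.

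The Argonaute genes of other small RNA pathways, which bind microRNAs in body cells, went in both directions. AGO4 favoured testis, with a difference of 1.14 (SE 0.035, adjusted p = 0.00194) and AGO3 higher in ovary (-0.73, SE 0.032, adjusted p = 0.00316), each with 2 of 2 probe sets called in that direction and both calls kept with any pool left out. AGO1 was at background in every pool. DICER1, the nuclease that makes microRNAs, had a difference of 0.02 on its brightest probe set (adjusted p = 0.88), while its other probe set was higher in ovary, at 6.59 and 6.67 in testis, against 9.94 and 10.02 in ovary (difference -3.36, adjusted p = 0.000848). The median over these 4 genes, with AGO1 at background among them, was 0.14. By the brightest probe set 1 of the 4 was called toward testis and 1 toward ovary, beside 24.3% and 28.7% of all genes. AGO2, also listed, had no probe set under its symbol. AGO1, AGO3 and AGO4 each have a probe set with the number 1501 in its name, and whether these tell the genes apart was not tested.

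By pattern over the 4 pools, the genes nearest to PIWIL1 were TMEM50B, PITPNM3, OSBPL10, PDCD2 and BMI1, at Euclidean distances of 0.023 to 0.078 between centred log2 values. With 2 pools an organ this measure mostly finds genes with a difference of the same size, here 2.49 to 2.57. Not all probe sets of those genes were called: the called ones were 1 of 4 for TMEM50B, 1 of 3 for OSBPL10 and 2 of 3 for PDCD2. Of the other 9 genes described here, TDRD9 was the nearest, at rank 78 of 13007 (distance 0.19), while TDRD1 was at rank 934 (distance 0.85).

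The genes lie on 8 chromosomes of GRCg7b, with MOV10L1 and MAEL on chromosome 1 and both genes called higher in ovary, HENMT1 and TDRD5, on chromosome 8. Their nearest protein-coding neighbours were looked up to see whether the differences extended beyond the genes themselves. Of 20 neighbours 17 had a probe set, and the calls were 4 toward testis, 2 toward ovary and 11 in neither direction, beside 24.3% and 28.7% of all genes. Among those 11, FZD10, MAS1, VWA2 and TMOD1 had means below the background level in both organs, so that they gave no measure. Both neighbours of MOV10L1 were higher in testis, MLC1 at least 28.1-fold with both ovary pools at background (adjusted p = 0.00313) and PANX2 by 3.34 (adjusted p = 0.00132, 2 of 3 probe sets called). The others called higher in testis were ILDR2 beside MAEL (3.04, adjusted p = 0.00237) and PRPF38B beside HENMT1 (1.29, adjusted p = 0.00516). FAM102B, on the other side of HENMT1, was higher in ovary (-1.16, adjusted p = 0.00324), as was DGKQ beside TDRD7 (-2.00, adjusted p = 0.00256). PRPF38B lost its call with testis pool 1 or pool 2 left out (adjusted p = 0.0682 or 0.0727). These neighbours were named after their values were seen. No neighbour of PIWIL1, TDRKH, PNLDC1, TDRD1 or TDRD9 was called by its brightest probe set with all 4 pools. RD3L beside TDRD9 was at background in both ovary pools and did not pass (adjusted p = 0.116). Its mean over the testis pools was 2.1-fold above the background level. The measured difference, which is no bound, was 2.71 without testis pool 1 and 1.32 without testis pool 2.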

How the data were processed

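The authors deposited log2 expression values per probe set for 4 arrays. The submitters' processing notes name GCRMA and MAS5, with no role, order or version in the sources used here, and per the series design the arrays were checked with affyPLM. The values were used as deposited. After 153 control probe sets were left out, testis was compared with ovary over 38382 probe sets with limma (version 3.58.1, R 4.3.3), using lmFit and eBayes with two-sided tests, Benjamini-Hochberg adjustment and a threshold of 0.05. The fit had 2 residual and 0.741 prior degrees of freedom. The code was run on simulated data with spreads shuffled over probe sets and few probe sets changed, which does not bear on the calls here. Symbols came from the platform annotation, updated through a GRCg7b gene table. A fold against an organ at background in both pools is a lower bound. The background level, the 99th percentile of 689 other probe sets, stands for that organ. An adjusted p beside such a bound belongs to the measured difference. The genes, lists and tests were chosen with earlier results of these data known. Named genes were all 10 members, up to 6 called other pathway genes per direction, those not called, and the 5 nearest to PIWIL1, and genes beyond this rule were named after their values were seen. The number of arrays limits the precision. No sequences are printed and the planned promoter search was not run.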

Additional observations from a re-analysis of the deposited data

How the results depend on the processing

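The calls were refitted with a variance trend, robust moderation, quantile normalization, median centring, a filter on dim probe sets, a floor at background, the pool number as a replicate block and each pool left out. Over all probe sets the counts were 6666 higher in testis and 7000 in ovary, and 4053 to 6007 and 3734 to 6449 with a pool left out. For the 10 genes, the probe sets higher in testis numbered 13, and 9 to 13 with a pool left out, and the genes 8, and 5 to 8. Those higher in ovary numbered 2 by probe set and by gene. They numbered 1 with the trend, quantile normalization, median centring, the filter, the floor and the block, where TDRD5 lost its call, and 0 to 1 with a pool left out. Of the other pathway genes 11 were higher in testis (6 to 11 with a pool left out) and 1 in ovary (0 to 1, and 0 with the block). Robust moderation, and for the genes of the 10 the mean of all probe sets, left these list counts as they were. The deviations of same-numbered pools of the 2 organs correlated at r = 0.0524 over all probe sets. Whether same-numbered pools share a batch was not tested. With the replicate block 5506 probe sets were higher in testis and 5874 in ovary, and 11 probe sets of the 10 genes in testis, with TDRD1 probe set 1 (adjusted p = 0.0563), TDRD5 (0.0698) and MAEL (0.105) losing their calls. The probe sets of TDRKH at background changed sign, to -0.062 for the second with median centring, and for the third to 0.0023 with quantile normalization, while the third ran from -0.012 to 0.0049 with a pool left out. The causes were not tested.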
